A study of Mus musculus with 32 samples.

Results

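The 7 genes described here are the MHC class II antigen presentation genes *H2-Aa*, *H2-Ab1*, *H2-Eb1*, *H2-DMa*, *H2-DMb1* and *Cd74* and their transcriptional coactivator *Ciita*, chosen by gene symbol from the 53558 genes quantified. They were measured by RNA-seq in 32 libraries of neoplastic cells sorted from lung tumors of mice in which *Lkb1* (gene symbol *Stk11*) had been inactivated and, in some tumors, switched back on. All tumors carried the Cre reporter Rosa26LSL-tdTomato. The KT group (4 libraries, 2 of them from females) was wild type for *Lkb1* and *Trp53* and was not treated. The non-restored group (10 libraries) was homozygous for Lkb1XTR, an allele that Cre turns off and FLP turns on again, and came from mice given tamoxifen without FLPo-ERT2 (4 libraries) or vehicle with FLPo-ERT2 (6 libraries), 7 of them female. The restored group (7 libraries) was Lkb1XTR/XTR with FLPo-ERT2, a tamoxifen-activated recombinase, and was given tamoxifen in doses of 4 mg. The remaining groups carried Trp53flox/flox in addition. They held 7 non-restored libraries, which the sample titles assign to 4 animals (2 given vehicle with FLPo-ERT2 and 2 given tamoxifen without it), and 4 restored libraries from tamoxifen with FLPo-ERT2. *Trp53* wild-type tumors were collected 24 to 27 weeks after initiation and *Trp53*-deleted tumors after 16 to 19 weeks, with 2 weeks of treatment in the treated groups, so tumor age and *Trp53* status cannot be told apart. Both restored groups were all female. The study initiated KT tumors with a lower dose of lentiviral Cre than the *Trp53* wild-type Lkb1XTR/XTR tumors. In comparisons with KT, viral dose and *Lkb1* status therefore cannot be told apart. The sort kept live cells negative for CD45, CD31, F4/80 and Ter119.

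MHC class II molecules are heterodimers that show peptides from the endosomal pathway to CD4+ T cells. The invariant chain, encoded by *Cd74*, holds the new heterodimer and blocks its groove, and the H2-DM heterodimer later helps peptide take the place of the invariant chain remnant. *Ciita* has no DNA-binding activity of its own and is recruited to the X and Y boxes of class II promoters by a complex of RFX, CREB and NF-Y proteins. Dendritic cells, macrophages and B cells are the classical source of these transcripts, and alveolar type II cells of the lung, the surfactant-producing epithelium, express them as well.

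RefSeq promoter windows on GRCm38.p6, from 250 bases before to 50 bases after the start site, were at hand for 4 of the 7 genes. The stretch from 140 to 11 bases before the start site is given for *H2-Aa* and *H2-Eb1*, the chains with the same start site in RefSeq and GENCODE, and for the neighboring class II gene *H2-Eb2*, which is measured below. Capitals mark an X box core (AACTGATG), a Y box core (TGATTGG) or a cAMP response element (TGACGTCA).
H2-Aa: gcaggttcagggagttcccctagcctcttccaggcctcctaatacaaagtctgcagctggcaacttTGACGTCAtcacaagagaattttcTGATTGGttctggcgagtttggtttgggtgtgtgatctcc
H2-Eb1: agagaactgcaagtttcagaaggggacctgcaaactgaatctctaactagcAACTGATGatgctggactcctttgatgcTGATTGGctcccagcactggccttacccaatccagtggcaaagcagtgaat
H2-Eb2: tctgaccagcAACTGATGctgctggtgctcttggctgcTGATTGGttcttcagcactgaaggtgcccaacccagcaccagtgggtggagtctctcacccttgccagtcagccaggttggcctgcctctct
The stretches are chr17:34287834-34287963 on the minus strand, chr17:34305727-34305856 on the plus strand and chr17:34325535-34325664 on the plus strand, in that order, each written 5′ to 3′. In *H2-Eb1* the X box core began 89 bases and the Y box core 61 bases before the start site. In *H2-Eb2* they began 130 and 102 bases before it, so the spacing between the box starts was 28 bases in both genes. *H2-DMb1* held the same pair of cores 92 and 63 bases before its RefSeq start, 29 bases apart, although its GENCODE gene begins 119 bases further upstream. *H2-Aa* held the cAMP response element 74 bases and the Y box core 50 bases before its start. Searched on both strands, the X box core occurred in 255 of 32851 promoter windows (0.776%), the Y box core in 2568 (7.82%) and the cAMP response element in 588 (1.79%). An X box core followed by a Y box core within 40 bases occurred in 6 windows (0.0183%), of *H2-DMb1*, *H2-Eb1*, *H2-Eb2*, BC051142, *H2-M10.4* and *G3bp2*. These letters were chosen with the sequences of the class II genes in view, so the rarity is a description. Neither of the windows of *H2-DMa* held any of the 3 motifs.

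Total expected counts ranged from 1302482 to 5943951 per library and were lowest in the KT group, at 1302482 to 2649449. *Stk11* averaged 22.4 CPM (counts scaled to library size) in KT, 0.402 CPM in non-restored and 15.9 CPM in restored libraries, with 0.319 and 11.8 CPM in the *Trp53*-deleted non-restored and restored groups, as the labels state. All 7 genes had an expected count above 0 in all 32 libraries. The lowest count of a library was 157 for *Cd74*, 20 for *H2-Aa*, 10 for *H2-DMa*, 7 for *H2-Ab1*, 4 for *H2-Eb1*, 3 for *Ciita* and 1.48 for *H2-DMb1*. Non-restored replicate 8 held the lowest level of all 7 genes within its group, and is named below where a result rests on it. The counts of *H2-DMb1* were not whole in 30 of 32 libraries, as RSEM divides reads between it and its near-identical neighbor *H2-DMb2*, and its values are uncertain to that degree. *Ciita* overlaps *Dexi* and *H2-DMa* overlaps *Brd2* on the opposite strand, and whether the counting used strand is not given in the sources used here. On GRCm38 with GENCODE M21, *H2-DMa*, *H2-DMb1*, *H2-Ab1*, *H2-Aa* and *H2-Eb1* lie in that order between chr17:34119541 and 34316674, *Ciita* lies at chr16:10480059-10528418 and *Cd74* at chr18:60803848-60812652.

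Levels of different genes are compared per transcript length, as TPM. *Cd74* was the most abundant in all 5 groups, with 2092 TPM in KT, 1398 in non-restored and 2137 in restored tumors. *H2-Ab1* (950, 469 and 854 TPM) and *H2-Aa* (923, 412 and 766 TPM) followed, and *H2-Ab1* was between 87.8% and 112% of *H2-Aa* in the KT libraries, so the order of these neighbors lay within their spread. *H2-Eb1* was next at 230, 91.8 and 179 TPM. *H2-DMb1* (95.1, 54.3 and 67.1 TPM) and *H2-DMa* (72.1, 28.8 and 49.1 TPM) were close to each other, and *Ciita* was the lowest at 14.5, 9.64 and 16.7 TPM. The summed TPM of the 6 genes without *Ciita* was 4362 ± 908 (SD, n = 4) in KT, 2453 ± 1029 (n = 10) in non-restored and 4052 ± 1046 (n = 7) in restored tumors.

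Among the peptide-binding chains, *H2-Aa*, the alpha chain of the I-A molecule, stood at 625, 729, 773 and 659 CPM in KT replicates 1 to 4. The 10 non-restored libraries ranged from 27.4 through a median of 315 to 391 CPM. The 7 restored libraries ranged from 239 through 634 to 729 CPM. Every non-restored library was below every KT library, and 5 of the 7 restored libraries were above every non-restored one. Group means were 696 ± 66.6 CPM (SD, n = 4) in KT, 277 ± 119 (n = 10) in non-restored and 563 ± 203 (n = 7) in restored tumors. The 2 restored libraries that overlapped the non-restored range were replicates 4 and 5, and this was so for the other members as well, with *H2-DMb1* adding more.

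*H2-Ab1*, the beta chain of I-A, was measured at 350, 512, 566 and 415 CPM in the KT replicates. Non-restored libraries spanned 16.4 to 324 CPM with a median of 227. Restored libraries spanned 186 to 592 CPM with a median of 453. *H2-Eb1*, the beta chain of the I-E molecule, stood at 154, 185, 222 and 190.3 CPM in KT, at 4.11 to 103 CPM (median 76.1) in non-restored and at 62.5 to 187 CPM (median 160.1) in restored libraries. For both beta chains the KT and non-restored ranges did not overlap and the restored range reached into both. The I-E alpha chain is represented by the pseudogene *H2-Ea-ps*, which had 0 counts in all 32 libraries.

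The H2-DM chains form the heterodimer that exchanges the bound peptide. *H2-DMa* stood at 88.8, 67.5, 86.1 and 58.9 CPM in KT, at 2.28 to 37.8 CPM (median 28.8) in non-restored and at 29.2 to 61.7 CPM (median 56.3) in restored tumors. Non-restored and KT libraries of *H2-DMa* were separate, and the restored libraries lay between and across them. *H2-DMb1* stood at 97.8, 70.8, 106 and 101 CPM in KT, at 5.93 to 68.4 CPM (median 48.5) in non-restored and at 37.4 to 74.9 CPM (median 68.2) in restored tumors. Only 3 of 7 restored libraries exceeded all non-restored ones for *H2-DMb1*, against 5 of 7 for each of the other 6 genes.

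*Cd74*, the invariant chain, was measured at 1002, 2138, 2273 and 1887 CPM in KT, 111 to 1535 CPM (median 1238) in non-restored and 996 to 2221 CPM (median 1983) in restored libraries. KT replicate 1 was the low KT library, and only 3 of 10 non-restored libraries were below all of KT for *Cd74*. *Ciita* stood at 44.1, 61.6, 59.0 and 53.7 CPM in KT, 4.56 to 52.2 CPM (median 33.2) in non-restored and 36.4 to 70.4 CPM (median 60.4) in restored libraries. For *Ciita* 9 of 10 non-restored libraries were below all of KT, and the restored median was the highest of the 3 groups.

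**Figure D1:**
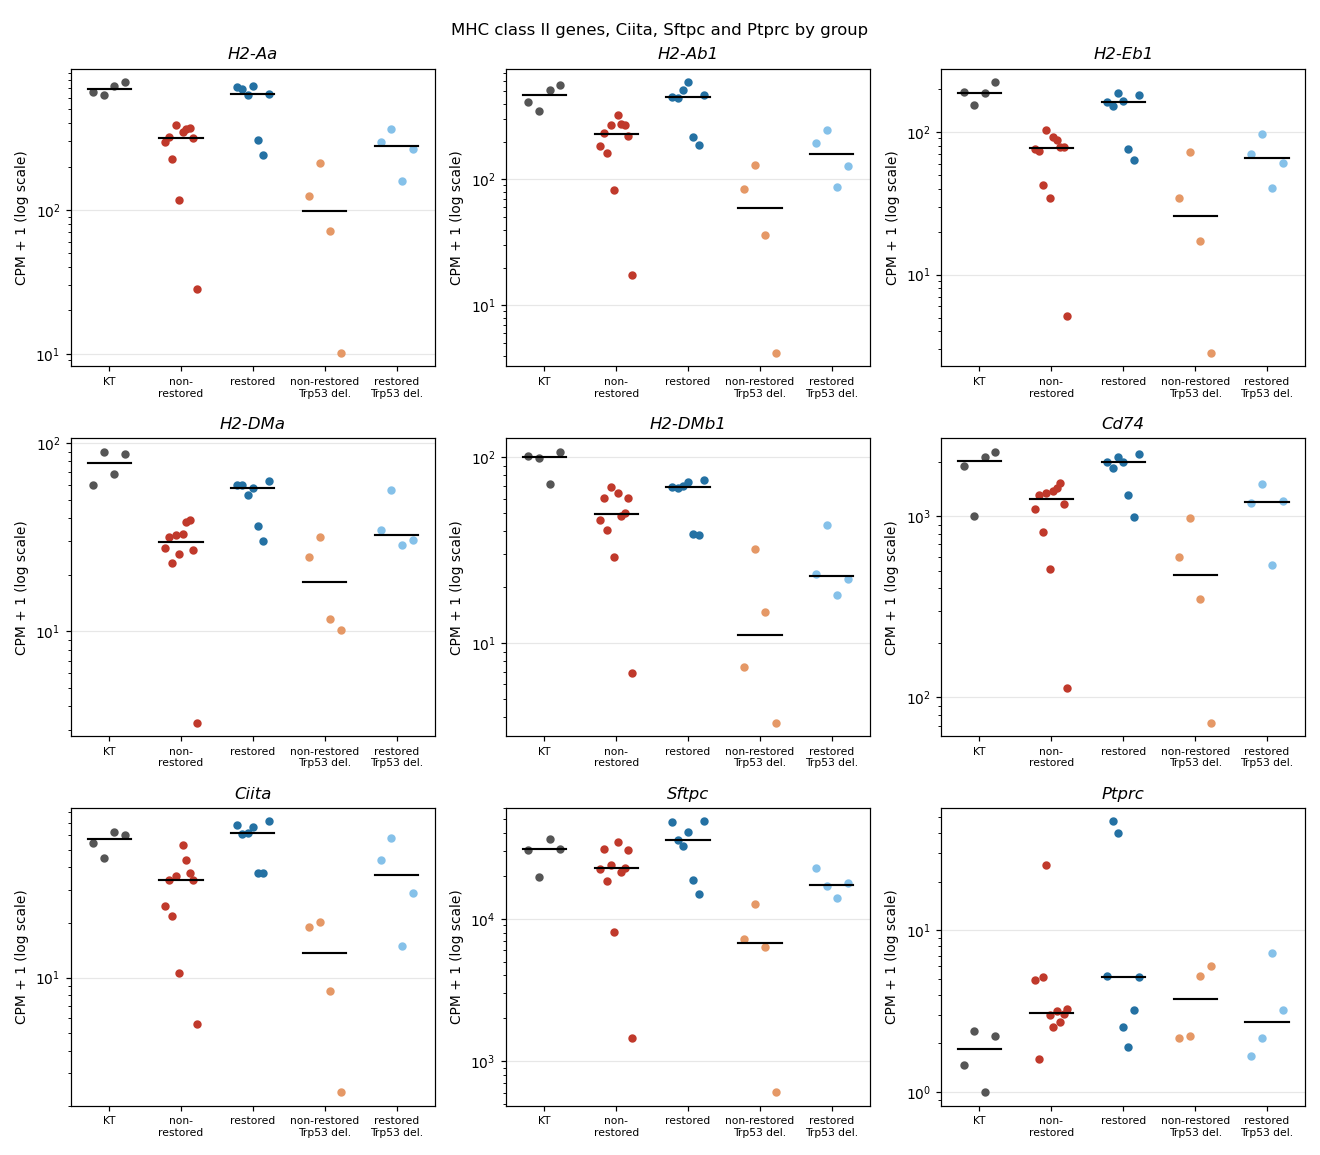
CPM + 1 on a log axis for the 7 genes and for *Sftpc* and *Ptprc*, 1 point per library (libraries of 1 animal summed) in the 5 groups, with the median as a black line. The KT and non-restored points of *H2-Aa*, *H2-Ab1*, *H2-Eb1*, *H2-DMa* and *H2-DMb1* do not overlap, and the lowest non-restored point of all 7 genes is replicate 8.

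Restoration was compared with non-restoration in *Trp53* wild-type tumors. All 7 genes were higher in restored tumors, and none of the 7 passed the adjusted threshold of 0.05 in edgeR's quasi-likelihood test, where 1.87% of 12636 genes passed it (0.973% as higher). At an unadjusted p under 0.05 there were 6 members, and 1913 of all genes. Over all genes the median log2 difference was -0.01. The differences were 1.02 ± 0.35 (log2, SE) for *H2-Aa* (adjusted p = 0.152), 1.00 ± 0.37 for *H2-Ab1* (0.191) and 1.08 ± 0.37 for *H2-Eb1* (0.152). For the peptide exchange chains they were 0.88 ± 0.30 for *H2-DMa* (adjusted p = 0.147) and 0.38 ± 0.29 for *H2-DMb1* (0.587). *Cd74* differed by 0.72 ± 0.33 (adjusted p = 0.299) and *Ciita* by 0.94 ± 0.31 (0.138). Without non-restored replicate 8 the adjusted p was 0.0483 for *H2-Aa*, 0.0353 for *H2-Eb1* and 0.0123 for *H2-DMa*, so 3 members passed. Over all genes 319 passed in that fit. No member separated the groups completely, where 0.578% of genes did. With reads of *H2-DMb1* and *H2-DMb2* summed the difference was 0.51 (adjusted p = 0.464).

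Non-restored tumors were then compared with KT tumors, which kept *Lkb1*, and these comparisons share the non-restored libraries with the one above. All 7 genes were lower in non-restored tumors, and 2 passed the threshold, *H2-DMa* and *H2-Eb1*, where 5.86% of all genes tested passed it (3.48% as lower). *H2-DMa* fell by 1.48 ± 0.35 (log2, SE) with an adjusted p of 0.0135. *H2-Eb1* fell by 1.51 ± 0.42 with an adjusted p of 0.0379. The other differences were -1.33 ± 0.40 for *H2-Aa* (adjusted p = 0.0523), -1.18 ± 0.43 for *H2-Ab1* (0.114), -1.01 ± 0.34 for *H2-DMb1* (0.0836), -0.77 ± 0.39 for *Cd74* (0.268) and -0.90 ± 0.37 for *Ciita* (0.164). The KT and non-restored ranges did not overlap for 5 members, where 3.91% of all genes were separate in this way. The number of members past the threshold changed with the libraries used: it was 0 without KT replicate 1 or KT replicate 3 and 5 without non-restored replicate 8. Over all genes 340, 418 and 951 passed in those fits, in that order. Restored against KT tumors gave no member past the threshold, where 0.459% of all genes passed it, with member differences from -0.63 to 0.04 (median -0.31). No member separated these groups completely, where 2.79% of genes did.

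**Figure D2:**
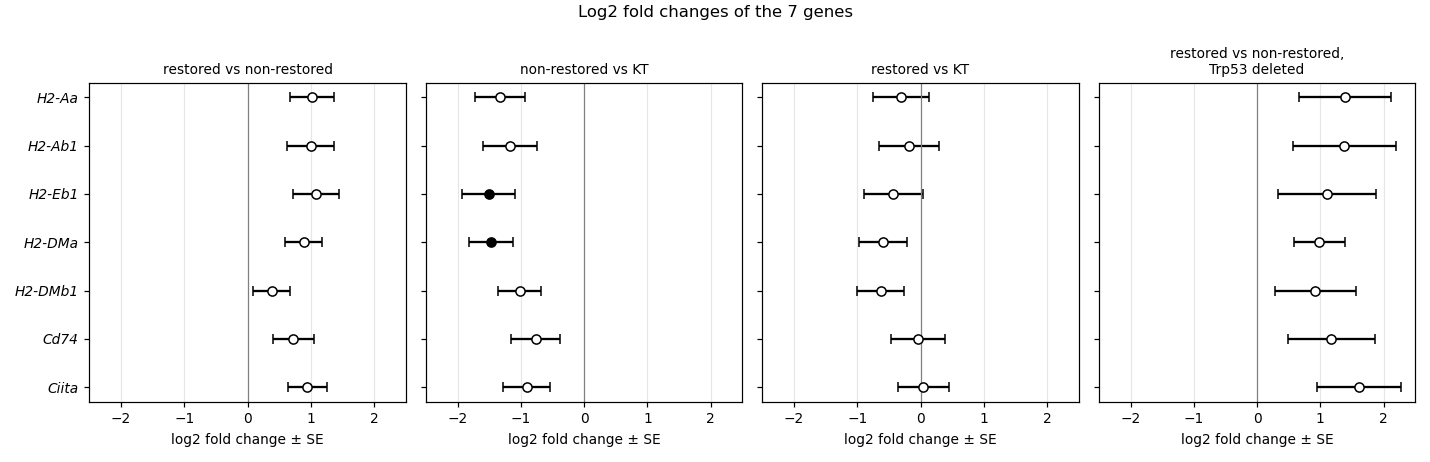
Log2 fold change with its SE for the 7 genes in 4 comparisons, filled where the adjusted p was under 0.05. All 7 genes are above 0 in restored against non-restored tumors and below 0 in non-restored against KT tumors, and the filled points are *H2-Eb1* and *H2-DMa* in the latter.

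In *Trp53*-deleted tumors the 4 non-restored animals were set against 4 restored libraries. *H2-Aa* stood at 124, 210.1, 70.0 and 9.14 CPM in the non-restored animals and at 295, 362, 158 and 263 CPM in the restored libraries. *Ciita* stood at 17.9, 19.1, 7.46 and 1.37 CPM against 43.1, 57.0, 13.9 and 27.9 CPM. The groups overlapped for all 7 genes, where 3.62% of all genes were separate, and the fourth non-restored animal was the lowest for each. *Cd74* stood at 593, 974, 351 and 71.7 CPM in the non-restored animals and at 1181, 1502, 536 and 1218 CPM in the restored libraries. *H2-Ab1* ranged from 3.20 to 129 CPM against 85.8 to 245 CPM, and *H2-Eb1* from 1.83 to 70.8 CPM against 39.5 to 96.0 CPM. For the exchange chains, *H2-DMa* ranged from 9.14 to 30.5 CPM against 27.8 to 55.0 CPM and *H2-DMb1* from 2.74 to 31.0 CPM against 17.1 to 42.3 CPM. *Sftpc* was lower in every non-restored animal (605 to 12785 CPM) than in every restored library (13914 to 22774 CPM). All 7 genes were again higher in restored tumors, with a median log2 difference of 1.17, which was 1.92 without the second non-restored animal. The differences were 1.39 ± 0.73 (log2, SE) for *H2-Aa*, 1.38 ± 0.81 for *H2-Ab1*, 1.10 ± 0.78 for *H2-Eb1*, 0.98 ± 0.40 for *H2-DMa*, 0.92 ± 0.64 for *H2-DMb1*, 1.17 ± 0.69 for *Cd74* and 1.61 ± 0.67 for *Ciita*. Adjusted p values were between 0.803 and 0.810, and 0% of 12518 genes passed in edgeR, with 748 genes and 2 members (*H2-DMa* and *Ciita*) under an unadjusted p of 0.05. DESeq2 called 23 genes and no member. The difference between the effects with and without *Trp53*, tested as an interaction, gave no gene past the threshold (0% of 13705; 424 at an unadjusted p under 0.05, no member) and member values from -0.01 to 0.63 (median 0.35, and -0.03 without the fourth non-restored animal).

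Against *Trp53* wild-type tumors, all 7 genes were lower in *Trp53*-deleted non-restored tumors, by a median of -1.28 (log2). None passed the threshold, where 0.598% of genes did (0.226% as lower). At an unadjusted edgeR p under 0.05 there were 5 members, and 2428 of 13705 genes. *H2-DMb1* had the smallest adjusted p, at a difference of -1.74 (adjusted p = 0.0951). Among restored tumors the median difference was -1.06, again with no member past the threshold, where 0.372% of genes passed it (0.19% as lower). With *Sftpc* as a covariate this median was -0.15 and 3 of 7 members were higher. Within the *Trp53* wild-type non-restored group, the tamoxifen arm and the vehicle arm differed by a median of -0.20 over the members, with no member past the threshold, where 0.00791% of genes passed it. Without replicate 8 that median was 0.18, with 6 of 7 members higher against 1 of 7 with it, so the direction rests on this library.

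To read the class II genes against immune cells and tumor cells, they were set beside *Ptprc*, which encodes the leukocyte surface protein CD45, and *Sftpc*, which encodes surfactant protein C of alveolar type II cells. In bulk libraries fewer cells of a type and less RNA per cell cannot be told apart. *Ptprc* stood at 1.38, 0, 1.23 and 0.479 CPM in the KT replicates, at 0.596 to 24.5 CPM (median 2.10) in non-restored and at 0.904 to 46.3 CPM (median 4.15) in restored libraries. Its counts were few, from 0 to 129 in a library with a median of 6, and above 0 in 29 of 32 libraries. The order of libraries and groups in *Ptprc* is uncertain at such counts. *Sftpc* stood at 19741, 36649, 31110 and 30392 CPM in KT, at 1458 to 34776 CPM in non-restored and at 14839 to 48418 CPM in restored libraries. *Ptprc* was lowest in KT, where most class II genes were highest. Its mean was 14.1 CPM in the restored and 4.49 CPM in the non-restored group. The restored mean of *Ptprc* rests on replicates 1 and 6, at 46.3 and 39.1 CPM. The other restored libraries stood at 0.904 to 4.21 CPM. Non-restored replicate 2 stood at 24.5 CPM, and the rest of that group at 0.596 to 4.13 CPM. In restored replicates 2, 3 and 7 *Ptprc* was 1.52, 4.21 and 4.15 CPM, while *H2-Aa* was 729, 710 and 634 CPM. *Sftpc* was lowest in non-restored replicate 8, as were all 7 genes, and the 2 restored libraries low in the class II genes were also low in *Sftpc*, at 14839 and 18762 CPM.

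Within the 10 non-restored libraries the 7 genes correlated with *Sftpc* at Pearson r of 0.92 to 0.98 on the log2 CPM scale (permutation adjusted p from 0.00854 to 0.0529 over 84 tests, 6 of 7 past the threshold). Spearman rho was 0.56 to 0.92, with 1 past the threshold. Without the libraries farthest from the *Sftpc* median, replicates 8 and 4, r was 0.16 to 0.77, so the size of the relation rests on those 2 libraries. With *Ptprc* r was 0.02 to 0.14 and rho -0.36 to 0.01 (permutation adjusted p for r 0.762 to 0.961), and without the 2 farthest libraries r was -0.22 to -0.04. A low r with *Ptprc* cannot be told from a relation flattened by its few counts. With the summed leukocyte markers described below r was -0.91 to -0.77, past the threshold for all 7 (permutation adjusted p up to 0.0268), and -0.14 to 0.16 with none past it once *Cd53* was left out of the sum. Spearman rho with that sum was -0.87 to -0.61, and without the 2 farthest libraries r was -0.71 to -0.12. *Cd53* alone gave r of -0.89 to -0.76. Within the 7 restored libraries r with *Sftpc* was 0.91 to 0.98 (exact permutation adjusted p 0.00882 to 0.0701, 5 of 7 past the threshold) and rho 0.61 to 0.96. On the log2(TPM + 1) scale only 1 of the 7 passed (adjusted p up to 0.108). Without replicates 4 and 5 r on the CPM scale ranged from -0.21 for *H2-Ab1* to 0.94 for *Ciita*. With *Ptprc* r was 0.41 to 0.53 and rho 0.14 to 0.43 in the restored libraries (exact permutation adjusted p for r 0.293 to 0.571), and r was 0.42 to 0.66 without the 2 farthest. With the summed leukocyte markers r was 0.22 to 0.39 and rho -0.11 to 0.39, with none past the threshold. KT and the *Trp53*-deleted groups have under 6 units and were given no correlation. Some restored and some non-restored libraries may share a mouse, so these permutation p-values take libraries, and not mice, as the units.

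**Figure D3:**
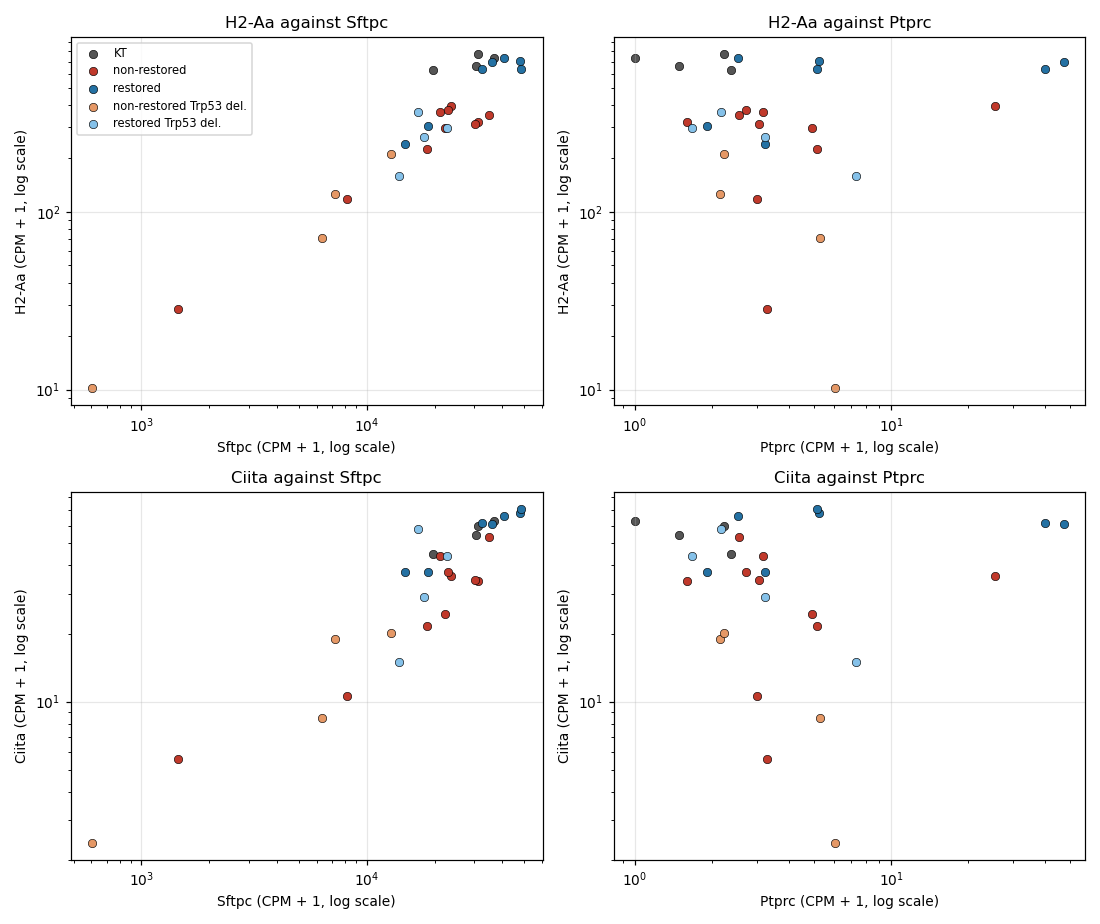
*H2-Aa* and *Ciita* against *Sftpc* and *Ptprc*, all as CPM + 1 on log axes, 1 point per library (libraries of 1 animal summed), colored by group. Points rise with *Sftpc* from non-restored replicate 8 (*Sftpc* 1458 CPM, *H2-Aa* 27.4 CPM) upward, while KT points sit at the left of the *Ptprc* panels with *H2-Aa* between 625 and 773 CPM.

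Per 1000 CPM of *Sftpc*, *H2-Aa* was 24.5 ± 5.18 CPM (SD, n = 4) in KT, 13.9 ± 3.18 (n = 10) in non-restored and 16.7 ± 2.37 (n = 7) in restored libraries. *Cd74* was 61.1 ± 9.28, 54.5 ± 13.5 and 55.7 ± 11.3 CPM on the same scale, group differences smaller than the spread. With the log2 CPM of *Sftpc* as a covariate, the median member difference of restored against non-restored tumors was 0.41 in place of 0.94. Under it *Ciita* was the 1 member past the threshold, at 0.48 (adjusted p = 0.0462), and *H2-DMb1* turned to -0.08. Over all genes 560 passed with this covariate, against 236 without it. In non-restored against KT tumors the median under this covariate was -0.75 in place of -1.18, and 6 of 7 members passed, all but *Cd74* (-0.34, adjusted p = 0.172). There 1269 of all genes passed, against 741 without the covariate. The covariate takes out a measured transcript level and not a cell count.

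Other leukocyte markers were read as the summed CPM of 10 genes. The sum ranged over 15.1 to 58.3 CPM in KT, 15.1 to 727 in non-restored, 23.5 to 283 in restored, 42.9 to 599 in *Trp53*-deleted non-restored and 39.5 to 239 CPM in *Trp53*-deleted restored units. In non-restored replicate 8, 707 of the 727 CPM were *Cd53*, so the list was also read without *Cd53*, a choice made after seeing the data. With *Cd53* the sum differed by -0.16 (log2) between restored and non-restored tumors (exact permutation p = 0.852). Without it the sum differed by 0.82 (log2) between restored and non-restored tumors (exact permutation p = 0.127, adjusted p = 0.380). In this shorter sum *Cytip* averaged 28.0 of 33.4 CPM in KT, 12.2 of 34.6 CPM in non-restored and 26.4 of 73.4 CPM in restored libraries. In KT the sum, and the covariate made from it, was therefore mostly *Cytip*. Restored replicates 1 and 6 stood at 219 and 127 CPM in it, and the other restored libraries at 22.7 to 54.0 CPM. With the full sum as a covariate the median member difference was 1.09 in restored against non-restored (*Ciita* past the threshold, adjusted p = 0.0289) and -1.06 in non-restored against KT tumors (1 member past it). Over all genes 294 and 666 passed, in that order. With the sum without *Cd53* the median member difference was 0.91 in restored against non-restored (no member past the threshold) and -1.16 in non-restored against KT tumors (2 members past it). Here 161 and 754 of all genes passed. *Ptprc* exceeded 20 CPM in restored replicates 1 and 6 and non-restored replicate 2, at 46.3, 39.1 and 24.5 CPM. Without these 3 libraries, a choice also made after seeing the data, the median was 0.94 with no member past the threshold, and -1.23 with 2 members past it, *H2-Eb1* (adjusted p = 0.0490) and *H2-DMa* (0.0289). Of all genes 89 and 643 passed without them. Macrophage markers, 8 tested, were all above their non-restored level in restored tumors (median 1.03, log2) and 7 tested leukocyte markers had a median of 1.10, with 4 of 7 higher and none in either list past the threshold. Both medians are above the 0.94 of the class II genes. The macrophage sum ranged over 39.8 to 115 CPM in KT, 23.2 to 398 in non-restored and 33.5 to 1347 CPM in restored libraries, and in restored replicate 1 *Chil3* gave 951 of the 1347 CPM. Markers of macrophages, dendritic cells and B cells together averaged 346 CPM in restored and 125 CPM in non-restored tumors (log2 difference 0.80, exact permutation p = 0.278, adjusted p = 0.559). The restored mean rests on replicates 1 and 6, at 1377 and 621 CPM, while the other restored libraries stood at 53.4 to 141 CPM. Non-restored replicate 2 stood at 427 CPM, and the rest of that group at 39.4 to 215 CPM. The part of macrophages, dendritic cells and B cells in the class II differences was not tested. The summed dendritic cell markers reached at most 15.7 CPM in a library, and the T and NK cell markers summed to at most 3.16 CPM. All 4 tested endothelial and all 6 fibroblast markers were higher in non-restored than in KT tumors (medians 2.30 and 1.51, log2), none of them past the threshold. The alveolar type II marker sum moved with the class II genes: it averaged 116034 CPM in restored and 63271 CPM in non-restored tumors (log2 difference 1.01, exact permutation p = 0.00956, adjusted p = 0.114), and its part in the class II differences was not tested.

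**Figure D4:**
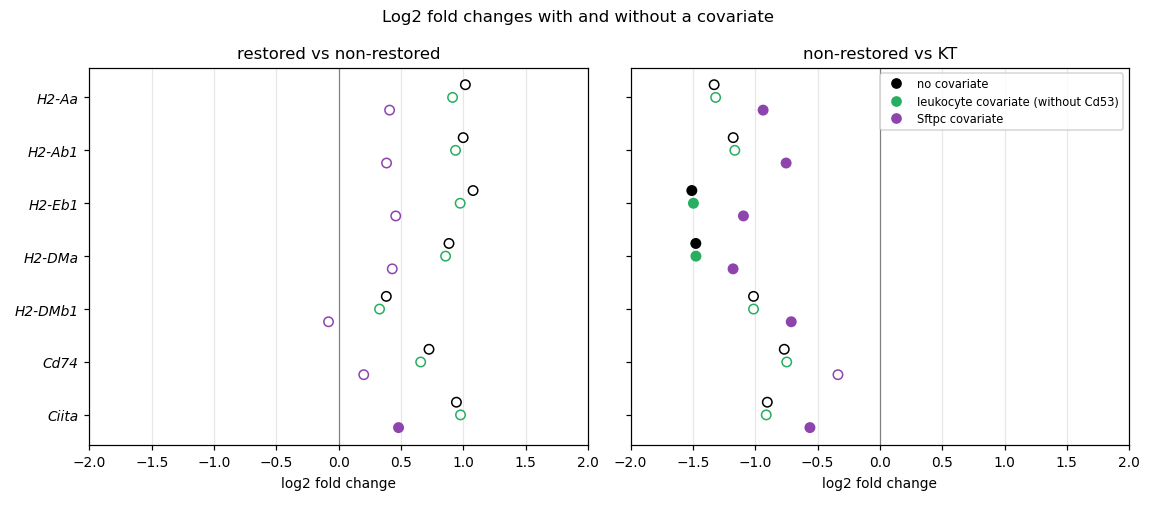
Log2 fold change of the 7 genes in restored against non-restored and in non-restored against KT tumors, with no covariate (black), with the leukocyte marker sum without *Cd53* (green) and with *Sftpc* (purple) as a covariate, filled where the adjusted p was under 0.05. The green points lie near the black ones (median 0.91 against 0.94) and the purple ones nearer to 0 (median 0.41).

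Of 5 other class II genes, 2 passed the count filter and were tested. *H2-Eb2*, whose X and Y boxes are printed above beside those of *H2-Eb1*, averaged 7.81 CPM in KT, 0.631 CPM in non-restored and 3.04 CPM in restored tumors. It fell by 3.52 ± 0.70 (log2, SE) from KT to non-restored tumors (edgeR adjusted p = 0.00388). Its median count was 2, with 21 of 32 libraries above 0. Non-restored libraries held 0 to 3.43 CPM, so *H2-Eb2* passed the filter through the groups where it was higher. The size of its fall and its adjusted p are uncertain to that degree and are given as a description. *H2-DMb2* was at -2.002 there (adjusted p = 0.0775). Of 10 genes of the X and Y box complex and its cofactors, 1 passed in that comparison, *Kat2b*, a histone acetyltransferase, at -0.79 ± 0.18 (adjusted p = 0.00975), and none in restored against non-restored tumors. *Rfx5*, which binds the X box, differed by 0.34 in restored against non-restored tumors (adjusted p = 0.295). Among 10 tested inducers of *Ciita*, including the interferon pathway gene *Irf1* (0.63, adjusted p = 0.262), none passed in either comparison. Nor did any of 11 class II processing genes, 3 costimulation genes, 4 *Cd74* partners and 6 neighbors in the class II region. Medians of these lists in restored against non-restored tumors were -0.08 for the complex, 0.04 for the inducers and 0.00 for the processing genes. They were 0.53 for costimulation, -0.16 for the *Cd74* partners and 0.19 for the region's neighbors, against 0.94 for the 7 members. For the other class II genes the median was 1.70, over *H2-Eb2* and *H2-DMb2* alone, and the limit given above for *H2-Eb2* holds for this median too. The 13 alveolar type II genes were all higher in restored tumors with a median of 0.66, and *Lyz2*, a lysozyme of these cells and of macrophages, rose by 1.83 (adjusted p = 0.0313).

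Across the 21 *Trp53* wild-type libraries the members moved closely together, with Pearson r of 0.88 to 0.99 over their 21 pairs (median 0.96). Against the mean of the 6 class II genes, 12629 other genes were ranked by r of log2 CPM. The likest were *Ppp1r9a* (0.97), *Osbpl6*, *Arhgef38*, *Dram1*, *Car8*, *Dtna*, *Hnmt* and *Ncoa7* (each 0.96). *Sftpc* ranked 20 with an r of 0.94 and *Ptprc* ranked 5805 with an r of 0.06. Likest to *Ciita* were *Car8*, *Hnmt*, *Ncoa7* and *Cbr2* (each 0.96) and *Gsap* (0.94), with *Sftpc* at rank 15 (0.92) and *Ptprc* at rank 5796 (0.08). The points share libraries and depth and include the group differences, so these values are a description over 21 libraries. The few counts of *Ptprc* also limit what its ranks can show.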

How the data were processed

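The authors aligned reads to mm10 with STAR 2.6.1d and deposited RSEM 1.2.30 gene estimates for each library in 2 units, expected counts and TPM. The libraries were made from 2 to 10 ng of RNA of sorted cells with rRNA depletion. Deposited tables of normalized counts and of DESeq2 1.26.0 fold changes and p-values were not used. Here expected counts were rounded, filtered with filterByExpr, scaled by TMM and tested with edgeR 4.0.16 (quasi-likelihood, Benjamini-Hochberg over all genes tested, threshold 0.05) in 1 fit of the 21 *Trp53* wild-type libraries, 1 of the 8 *Trp53*-deleted units and 1 of 25 units for *Trp53* status. Libraries that the titles give to 1 animal were summed, leaving 29 units. With *Trp53* wild type, the study had fewer mice than libraries in the restored and in the non-restored group. Some mice may therefore have given several libraries, and p-values cover the spread between libraries. CPM divide the counts by the TMM-scaled library size. Log2 CPM used a prior count of 2. Marker sums and correlations were tested by permutation, exactly or with 100000 resamples for 10 libraries.

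Named were the 7 members, *Stk11*, *Ptprc* and *Sftpc*, list genes past the threshold (up to 6 by p) or otherwise up to 3 by mean CPM, and the 8 and 5 genes likest to the class II mean and to *Ciita*. *H2-Ea-ps*, *H2-DMb2* and *Cd53* were added after their values were seen. An allele shared by all groups and 1 marker gene are not reported here. The members and lists were chosen with earlier results of these data known. Alternatives were DESeq2 1.42.0, limma 3.58.1 on log2(TPM + 1), other filters and scaling, covariates, sample subsets and leaving out each library. On simulated data with 12636 genes, 50% of genes changed by 1 (log2) and 81% of those changed by 2 were recovered in restored against non-restored tumors, and 13% and 69% in the *Trp53*-deleted comparison (12518 genes). The changed genes were picked at random and drawn independently. These shares are therefore not the power for the 7 members, which moved together.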

Additional observations from a re-analysis of the deposited data

Results flagged for a closer look

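*H2-DMa* in non-restored replicate 8 stood at 2.28 CPM, while the nearest of the other 9 non-restored libraries was at 22.2 CPM. The gap was 0.561 of the range of the group, above Dixon's critical value for 10 samples. It was the only such library among 35 combinations of gene and group, where chance flags about 1 in 20. The same library held the lowest *Sftpc* of its group, 1458 CPM, and *Cd53* at 707 CPM. Whether these values bear on the low *H2-DMa* was not tested.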

How the results depend on the processing

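Directions held for all members in restored against non-restored and in non-restored against KT tumors under every alternative, except *H2-DMb1* under the *Sftpc* covariate (-0.0819). That covariate also turned *H2-Aa* (-0.003867), *H2-Ab1* (-0.23), *H2-Eb1* (-0.40), *H2-DMb1* (-0.0735) and *Cd74* (-0.0500) in *Trp53*-deleted restored against non-restored tumors, and *H2-Eb1* (0.41), *H2-DMa* (0.51) and *Cd74* (0.24) in *Trp53*-deleted against wild-type non-restored tumors. The cause was not tested.

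Members past the threshold in restored against non-restored tumors, 0 as reported, numbered 1 with the leukocyte covariate, 1 with *Sftpc* and 0 to 3 when leaving out a library. In non-restored against KT tumors, 2 as reported, they numbered 1 with no low-count filter, 1 with limma on TPM, 1 with the leukocyte covariate, 6 with *Sftpc*, 1 with sex, 1 in a fit of the 2 groups, 0 in female libraries, 0 in the tamoxifen arm, 4 in the vehicle arm and 0 to 5 when leaving out a library. Over all genes, that comparison gave 563 calls with no low-count filter, 1020 with limma, 600 with sex and 514 in the 2-group fit. The reported fit gave 741. For restored against KT the number of members past the threshold was 1 with *Sftpc*, in place of 0. For *Trp53*-deleted against wild-type non-restored tumors, 0 as reported, it was 1 with DESeq2, 1 with sex, 1 with libraries entered separately and 0 to 4 when leaving out a unit (4 without non-restored replicate 8). The median of *Trp53*-deleted restored against non-restored tumors, 1.17, was 1.86 with sex, 2.80 with the leukocyte covariate without *Cd53* and -0.0500 with *Sftpc*, and that of *Trp53* status was 0.54, 0.35 and -0.22. For the arms it was 0.000322 with the leukocyte covariate. Of 42 Pearson correlations, 18 passed, 14 on the TPM scale and 11 with *Cd53* left out, a choice made after seeing the data. On the CPM scale Spearman rho passed for 1 member with *Sftpc* and 4 with the full leukocyte sum in non-restored libraries. In restored libraries rho passed for 2 members with *Sftpc*.

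Same-numbered libraries gave no steady pairing. An r above 0.1 was found in 1 of 4 KT and non-restored pairs. It was found in 5 of 7 restored and non-restored pairs, where r was 0.08 to 0.54 (median 0.18). Of the KT libraries 2 correlated best with the non-restored library of their own number, and none of the restored did. With the number as a replicate block, 4 members passed in restored against non-restored, 5 in non-restored against KT and 0 in restored against KT tumors. In that fit 270, 705 and 67 of all genes passed, in the same order. Numbers 8, 9 and 10 occur only in the non-restored group, so the block takes those libraries out of the comparisons. Leaving out non-restored replicate 8 alone gave 3 members in restored against non-restored and 5 in non-restored against KT tumors. Over all genes, restored against non-restored gave 236 calls, 467 with DESeq2, 560 with *Sftpc*, 50 in the tamoxifen arm and 89 without the libraries high in *Ptprc*. Non-restored against KT gave 741, 1269 with *Sftpc*, 132 in females, 280 in the tamoxifen arm and 653 in the vehicle arm. Restored against KT gave 58, 168 with DESeq2, 231 with *Sftpc*, 20 with the filter of 10 counts, 22 with sex, 32 without the libraries high in *Ptprc* and 10 in females. *Trp53*-deleted against wild-type gave 82 in non-restored tumors (419 with DESeq2, 1450 without non-restored replicate 8) and 51 in restored tumors (216 with DESeq2). Lowest counts of 3 for *Ciita* and 1.48 for *H2-DMb1* limit precision at the low end.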

Other observations

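*Pdpn*, an alveolar type I marker, fell by 2.59 (log2) from KT to non-restored tumors (edgeR adjusted p = 0.0269), the 1 of 8 such markers past the threshold there. Of these 8 markers 5 were higher in non-restored tumors, with a list median of 0.25 (log2). *Lyz2* fell by 1.73 in the same comparison (adjusted p = 0.0431).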
